A study of Mus musculus with 13 samples.

Results

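Genes of glycolysis and of the transcriptional response to low oxygen were followed in epididymal fat, the visceral white depot beside the testis of the mouse, across 2 diets and 2 genotypes. The set held 38 named genes: enzymes from hexokinase to pyruvate kinase, the genes that handle lactate and pyruvate, 2 subunits of the hypoxia-inducible factors (HIF), and targets of those factors. A member was measured where a probe set of the array was paired with its symbol alone, and a gene that had several was represented by the one with the highest mean. By this rule 35 of the 38 were measured, among 18820 genes in all, and Gpi1, Pfkfb1 and Eno1 were not analysed here because no probe set was paired with them in the annotation used. Values are log2 expression, so 1 unit is a doubling, and since probe sets differ in brightness a level is compared between groups of arrays and never between genes.

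All mice were male and 18 weeks old, and had been moved at 6 weeks of age to their diet for 12 weeks. Mice without P2X7 (strain B6.129P2-P2rx7tm1Gab/J, crossed back to B6 for 7 generations), called knockout mice, gave 4 arrays on high-fat diet (D12492, 60% of energy from fat). Knockout mice on low-fat chow (Harlan Teklad, 13% of energy from fat) gave 3 arrays, as did wild-type mice (C57/BL6) on high-fat diet and wild-type mice on chow. P2X7 is an ATP-gated channel, and the allele is a germline change, so it is carried by every cell of the fat pad. The high-fat and chow diets were different products, so their fat content and their other ingredients cannot be told apart. The labels do not say that each array held 1 animal, nor that the wild-type mice were littermates of the knockouts, so each p-value reflects only how far these samples spread, which may be partly technical.

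Glycolysis splits glucose into pyruvate; hexokinase, phosphofructokinase and pyruvate kinase are its irreversible steps. Pyruvate then enters mitochondria through pyruvate dehydrogenase or is reduced to lactate and exported. In low oxygen the prolyl hydroxylases that mark HIF-alpha subunits for destruction slow down, and the stabilised subunits, paired with Arnt, raise glycolytic enzymes, lactate export and blood vessel growth factors. HIF-alpha is controlled largely at the protein level, so an array reads the RNA of its subunits and targets and not its activity. Expanding fat pads of obese mice are known for low oxygen and for an influx of macrophages.

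The sequences below, from RefSeq (build GRCm38.p6), are the 250 bases before the start of 3 genes that rose on high-fat diet in both genotypes (Car9, Pfkfb4 and Pgk1) and 3 that fell (Hk2, Bnip3 and Vegfa). They are shown so that the letters HIF binds can be compared between risers and fallers. Capitals mark ACGTG or GCGTG, the core of the HIF binding motif, on either strand, so that CACGT and CACGC are the same letters read on the opposite strand, and CACGTG is ACGTG on both strands at once.
Car9 (chr4:43506776-43507025, plus strand): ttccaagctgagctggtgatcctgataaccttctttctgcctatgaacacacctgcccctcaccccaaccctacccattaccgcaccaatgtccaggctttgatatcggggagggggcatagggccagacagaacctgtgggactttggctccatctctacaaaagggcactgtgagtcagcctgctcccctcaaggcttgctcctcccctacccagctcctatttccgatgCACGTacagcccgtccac
Pfkfb4 (chr9:108991652-108991901, plus strand): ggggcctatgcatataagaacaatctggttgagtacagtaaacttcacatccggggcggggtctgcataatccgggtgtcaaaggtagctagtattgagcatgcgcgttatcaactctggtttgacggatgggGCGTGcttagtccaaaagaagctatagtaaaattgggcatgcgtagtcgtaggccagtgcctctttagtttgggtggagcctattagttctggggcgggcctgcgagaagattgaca
Pgk1 (chrX:106186850-106187099, plus strand): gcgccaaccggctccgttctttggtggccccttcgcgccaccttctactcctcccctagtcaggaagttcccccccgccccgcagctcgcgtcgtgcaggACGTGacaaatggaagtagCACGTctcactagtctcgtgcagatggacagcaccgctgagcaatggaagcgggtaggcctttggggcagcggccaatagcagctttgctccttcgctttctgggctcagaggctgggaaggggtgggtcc
Hk2 (chr6:82774455-82774704, minus strand): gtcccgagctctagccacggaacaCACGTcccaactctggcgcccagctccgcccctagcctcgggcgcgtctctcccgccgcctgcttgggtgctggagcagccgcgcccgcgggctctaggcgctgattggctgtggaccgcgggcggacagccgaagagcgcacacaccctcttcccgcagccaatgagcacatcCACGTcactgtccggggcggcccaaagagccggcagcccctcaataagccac
Bnip3 (chr7:138909507-138909756, minus strand): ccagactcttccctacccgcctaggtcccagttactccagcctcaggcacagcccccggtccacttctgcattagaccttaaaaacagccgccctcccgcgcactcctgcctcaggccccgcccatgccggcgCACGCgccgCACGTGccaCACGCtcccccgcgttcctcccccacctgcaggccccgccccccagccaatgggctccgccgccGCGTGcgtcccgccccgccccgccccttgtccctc
Vegfa (chr17:46032378-46032627, minus strand): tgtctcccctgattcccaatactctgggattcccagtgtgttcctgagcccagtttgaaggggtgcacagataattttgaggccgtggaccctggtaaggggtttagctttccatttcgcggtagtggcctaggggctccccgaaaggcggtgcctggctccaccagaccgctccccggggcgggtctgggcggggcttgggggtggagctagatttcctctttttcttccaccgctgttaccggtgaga

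These stretches held 1 motif in Car9, 1 in Pfkfb4, 2 in Pgk1, 2 in Hk2 and 5 in Bnip3. The printed Vegfa stretch held 0, and a second Vegfa start in the same table held 2 in its window. In windows of 250 bases before to 50 after a start, the motif occurred in 41 of 52 promoters of the members (78.85%) and in 14380 of 32851 promoters of all genes (43.77%). Counted by gene, of the 38 members, measured or not, 35 had a promoter in the table and 33 of them held the motif in at least 1 window, against 46.73% of all genes with a promoter there. The members had 52 windows for 35 genes and all genes 32851 for 27025, so a member had more windows in which to hold it. The members' windows were also richer in G and C, with a median of 60.5% against 52.7% over all windows, and both motifs contain CG. Since nearly all members held the motif, its presence could not separate the directions of the diet response, and nothing is concluded from it. Among measured members with a promoter in the table it was present in 13 of 13 that rose in wild-type mice. It was also present in 7 of 7 that fell and in 11 of 12 that did not pass the test. Tpi1 was the measured member without it. A match gives letters and not a bound site. In the shorter window of 100 bases before to 50 after the start, the share of member promoters was 53.85%.

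Markers of several cell types differed between the diets. Along the first principal component, with 74.7% of the variance over genes, the diets were separate. Mean log2 expression over 7 adipocyte markers ran from 11.88 to 12.11 on the arrays of knockout mice on high-fat diet and from 12.32 to 12.41 in knockout mice on chow, and from 11.70 to 12.05 in wild-type mice fed high fat and from 12.26 to 12.37 in wild-type mice on chow. Over 10 macrophage markers it ran from 10.55 to 10.75 in knockout mice fed high fat and from 8.89 to 9.33 in knockout mice on chow, and from 10.56 to 10.95 in wild-type mice fed high fat and from 8.66 to 9.11 in wild-type mice on chow. Markers of endothelium were at 9.19 to 9.53 in knockouts fed high fat, against 9.54 to 9.69 on chow, and at 8.83 to 9.50 in wild-type mice on high-fat diet, against 9.66 to 9.70 on chow. Of 6 cell division markers all rose in both genotypes, and of 6 mesothelium markers all fell. Neutrophil markers went both ways, and 2 of 7 rose and 2 fell in each genotype. Among 7 fibroblast markers 4 rose in knockout mice and 3 in wild-type mice, and 0 fell. Of 2 red blood cell markers 1 fell in knockout mice and 2 in wild-type mice. Of 7 smooth muscle and pericyte markers, 2 rose and 2 fell in knockout mice, and 1 rose and 4 fell in wild-type mice. The mean of 12 skeletal muscle markers stayed between 4.97 and 5.16 on all arrays, but 1 marker, Pvalb, rose by 3.00 ± 0.22 in knockout mice and by 2.94 ± 0.24 in wild-type mice, while 3 fell in knockout mice and 2 in wild-type mice. In bulk tissue, fewer cells of a type and less RNA per cell cannot be told apart, and the part of these cell types in the results below was not tested. Wild-type high-fat replicate 2 had the lowest macrophage level of its group (10.56) and, with knockout high-fat replicate 1, the lowest first component of the high-fat arrays. The mean of 10 liver markers ran from 5.66 to 6.83 in knockout mice fed high fat and from 6.56 to 6.72 in knockout mice on chow, and from 5.93 to 7.76 in wild-type mice fed high fat and from 7.77 to 8.69 in wild-type mice on chow. Wild-type chow replicate 1 had the highest of these values and stood apart on the second component, and wild-type high-fat replicate 2 had the highest of the high-fat arrays. Results that turn on these 2 wild-type arrays are given with and without them. P2rx7 itself read 8.90 to 9.14 in knockout mice on high-fat diet and 9.36 to 9.69 in wild-type mice fed high fat, and 7.90 to 8.23 and 7.91 to 8.41 in knockout and wild-type mice on chow. The sources used here do not say where its probes lie relative to the disruption, so these values check no label.

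High-fat diet changed most members, in both directions. In knockout mice 11 of 35 rose and 10 fell at a Benjamini-Hochberg adjusted p under 0.05 from limma, a linear model with moderated variances, where 14.5% of all genes rose and 19.7% fell. In wild-type mice 14 rose and 9 fell, where 17.7% of all genes rose and 18.1% fell. Without wild-type high-fat replicate 2 and wild-type chow replicate 1, 14 members rose and 11 fell in wild-type mice. Over this and the other alternative fits that did not leave out a single array, 2667 to 3379 of all genes rose and 2584 to 4523 fell. With all arrays, the share of members that changed in either direction was 60% in knockout mice, against 34.2% of all genes. In wild-type mice it was 65.71%, against 35.8% of all genes. All genes include dim ones, and the members were not compared with genes of like level. With a change of at least 1.5-fold as well, 6 members rose and 6 fell in knockout mice and 7 rose and 7 fell in wild-type mice. Over all genes these shares were 7.09% and 6.05% in knockout mice and 8.76% and 7.33% in wild-type mice. The median log2 change over the 35 members was 0.01 in knockout mice, against -0.06 over all genes, and 0.06 in wild-type mice, against -0.03 over all genes. The 22 genes of glycolysis and of lactate and pyruvate had 7 that rose and 5 that fell in knockout mice, and 10 that rose and 4 that fell in wild-type mice. The 11 hypoxia-response targets had 3 that rose and 4 that fell in each genotype.

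**Figure D1:**
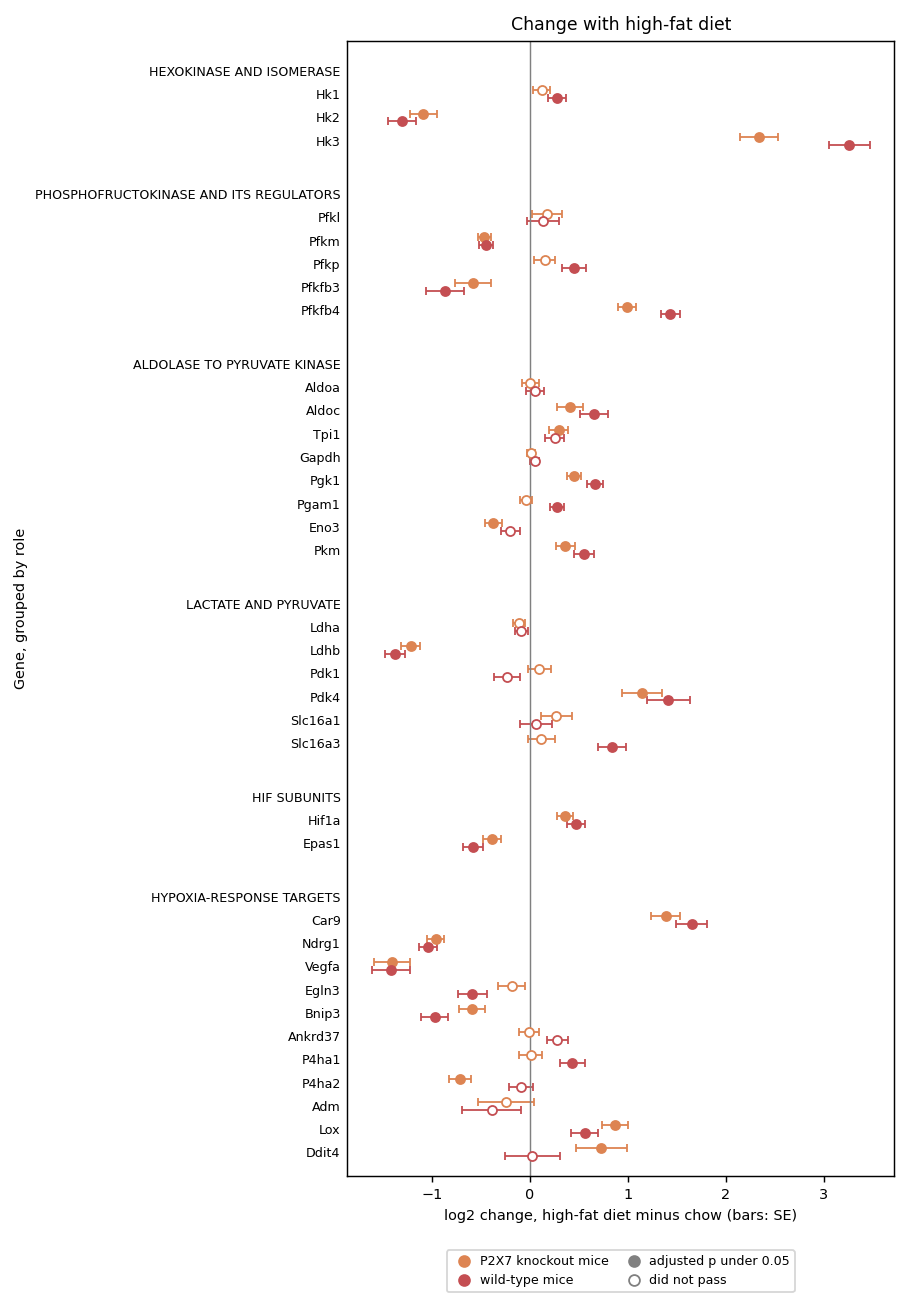
Log2 change with high-fat diet (high-fat minus chow, horizontal axis) of each of the 35 measured members, grouped by role, in P2X7 knockout mice (orange) and wild-type mice (red). Bars are standard errors from limma, filled points have an adjusted p under 0.05, and the members range from Hk3 at 2.33 and 3.26 to Vegfa at -1.41 and -1.42 in knockout and wild-type mice.

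Among the hexokinases, which trap glucose in the cell by phosphorylating it, the isoforms moved in opposite directions. Hk3, an isoform known mainly from myeloid blood cells, read 8.02, 8.25, 8.30 and 8.15 in knockouts fed high fat, against 5.93, 5.49 and 6.12 in knockout mice on chow. The wild-type arrays read 9.07, 8.31 and 8.96 on high-fat diet, against 5.78, 5.16 and 5.62 on chow. Every high-fat array lay above every chow array by more than the spread within any group. The rise was 2.33 ± 0.20 (SE, at least 5.04-fold) in knockout mice, with an adjusted p of 1.3e-06 from limma. In wild-type mice it was 3.26 ± 0.21 (at least 9.56-fold), with a limma adjusted p of 1.19e-07. These folds are lower bounds because the chow values were below every array median (6.56 to 6.69) and not shown to be above background. The rise of Hk3 was the largest change of any member in both genotypes. Macrophage markers were high on the same arrays, a link that was not tested. Among these markers 9 of 10 rose in each genotype, and Cd163 fell in both. Hk2, the insulin-responsive isoform of muscle and fat, went the other way. It read 7.83, 7.49, 7.72 and 7.83 in knockouts fed high fat, against 8.92, 8.60 and 8.90 on chow. In wild-type mice it read 7.46, 8.01 and 7.42 on high-fat diet, against 8.95, 8.92 and 8.93 on chow. The groups did not overlap, and within wild-type mice on high-fat diet replicate 2 was the closest to chow. Hk2 was 2.13-fold lower in knockout mice (log2 change -1.09 ± 0.13, limma adjusted p 3.39e-05) and 2.47-fold lower in wild-type mice (-1.30 ± 0.14, 9.8e-06). Hk1, the isoform found in most tissues, changed by 0.12 ± 0.08 in knockout mice (limma adjusted p 0.324) and by 0.27 ± 0.09 in wild-type mice (0.0305). That wild-type call did not hold without replicate 1 or 3 of the high-fat arrays or replicate 2 or 3 of the chow arrays, where the change was 0.20 to 0.26 and the adjusted p 0.0758 to 0.138, nor when arrays were centred on their medians.

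Phosphofructokinase commits the sugar to glycolysis. Of its 3 subunit genes, 1 fell in both genotypes, 1 rose in wild-type mice and 1 passed in neither. Pfkm, the muscle type, fell in both genotypes, by 0.47 ± 0.07 in knockout mice (limma adjusted p 0.000132) and by 0.45 ± 0.07 in wild-type mice (0.000263), with no overlap between diets. Pfkp, the platelet type, changed by 0.15 ± 0.11 in knockout mice (limma adjusted p 0.346) and rose by 0.45 ± 0.12 in wild-type mice (0.00908). Its wild-type chow arrays were uneven, with 9.44 in replicate 2 and 8.90 and 8.89 in the others. Pfkl, the liver type, passed in neither genotype, at 0.17 ± 0.15 and 0.13 ± 0.16. Pfkfb3 and Pfkfb4 encode bifunctional enzymes that make and break the sugar phosphate that activates phosphofructokinase, and they split. Pfkfb4 read 7.81, 7.79, 7.95 and 7.81 in knockouts fed high fat, against 6.86, 6.87 and 6.81 on chow. The wild-type arrays gave 8.15, 7.82 and 8.04 on high-fat diet, against 6.45, 6.51 and 6.74 on chow. Both genotypes showed a wide gap between diets and little spread within them. Pfkfb4 rose by 0.99 ± 0.09 (1.99-fold, limma adjusted p 2.48e-06) in knockout mice and by 1.43 ± 0.10 (2.70-fold, 1.64e-07) in wild-type mice. Pfkfb3 read 11.10, 10.33, 10.79 and 10.84 in knockouts fed high fat, against 11.29, 11.27 and 11.47 on chow. For wild-type mice the values were 10.38, 11.06 and 10.40 on high-fat diet, against 11.25, 11.62 and 11.56 on chow. The high-fat arrays lay below chow in each genotype, but 1 array of each high-fat group came close to it. Pfkfb3 fell by 0.58 ± 0.18 in knockout mice (limma adjusted p 0.0243) and by 0.87 ± 0.19 in wild-type mice (0.00309). The knockout call was lost without replicate 2 on high-fat diet or without replicate 1 or 3 on chow, where the change was -0.61 to -0.44 and the adjusted p 0.0517 to 0.0863.

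From aldolase to pyruvate kinase, 4 of 8 measured genes rose in each genotype and the changes were small. Pgk1, phosphoglycerate kinase, which makes the first ATP of the pathway, read 10.18, 10.11, 10.17 and 10.11 in knockouts fed high fat, against 9.66, 9.67 and 9.75 on chow. The wild-type values were 10.36, 10.18 and 10.26 on high-fat diet, against 9.49, 9.80 and 9.52 on chow. Diets did not overlap in either genotype. Pgk1 rose by 0.45 ± 0.07 in knockout mice (limma adjusted p 0.000366) and by 0.66 ± 0.08 in wild-type mice (1.94e-05). Pkm, the pyruvate kinase of most tissues outside liver and red cells, rose by 0.36 ± 0.10 (limma adjusted p 0.0112) and 0.55 ± 0.10 (0.000955) in knockout and wild-type mice. Aldoc, the aldolase isoform best known from brain, read 6.00, 6.28, 6.00 and 6.00 in knockouts fed high fat, against 5.82, 5.62 and 5.55 on chow. On the wild-type arrays it read 6.78, 6.30 and 6.21 on high-fat diet, against 5.69, 5.70 and 5.92 on chow. The groups were separate in both genotypes, though by a small margin in the knockouts. The rise was 0.41 ± 0.13 in knockout mice (limma adjusted p 0.0294) and 0.66 ± 0.14 in wild-type mice (0.00251). The knockout call was lost without replicate 2 on high-fat diet or replicate 2 or 3 on chow, where the change was 0.34 to 0.39 and the adjusted p 0.0828 to 0.106. Tpi1, triose phosphate isomerase, changed by 0.29 ± 0.09 in knockout mice (limma adjusted p 0.0294) and by 0.25 ± 0.10 in wild-type mice (0.0715). The knockout call was lost without replicate 1 on high-fat diet or replicate 1 or 2 on chow (adjusted p 0.0763 to 0.0984), and the wild-type change passed without wild-type high-fat replicate 3 (0.0463) or knockout high-fat replicate 1 (0.0435). Pgam1, phosphoglycerate mutase, changed by -0.04 ± 0.06 in knockout mice (limma adjusted p 0.672) and rose by 0.28 ± 0.07 in wild-type mice (0.0062). Eno3, the muscle enolase, fell by 0.37 ± 0.09 in knockout mice (limma adjusted p 0.00549) and changed by -0.20 ± 0.10 in wild-type mice (0.122), where it passed without replicate 1 on chow (-0.28, 0.0411).

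Aldoa and Gapdh, the aldolase of most tissues and glyceraldehyde phosphate dehydrogenase, gave no call with diet. Gapdh, often used to normalise other measurements, changed by 0.01 ± 0.04 in knockout mice (95% confidence interval -0.08 to 0.11) and by 0.05 ± 0.05 in wild-type mice (-0.06 to 0.15). It had the smallest spread between replicates of all members, a pooled standard deviation of 0.045. Aldoa changed by 0.00 ± 0.09 in knockout mice and by 0.05 ± 0.09 in wild-type mice. The mean levels of Gapdh (13.05) and Aldoa (12.24) were near the highest value of any probe set (13.86). Whether changes read smaller at such levels was not tested. Several of these genes have near-identical copies elsewhere in the genome, so the transcripts behind their probe sets are uncertain. Gapdh was paired with 17 probe sets, whose diet changes ran from 0.01 to 0.07 in knockout mice and from -0.03 to 0.08 in wild-type mice. Pgk1 and Pgam1 had 3 each, and Tpi1, Pkm, Ldhb and Bnip3 had 2 each. A further probe set of Pgk1 held the same values as the chosen one and is no separate measurement, as did pairs within Gapdh and Pgam1. The remaining Pgk1 probe set changed by 0.45 in knockout mice and by 0.66 in wild-type mice. The pair of other Pgam1 probe sets changed by -0.0006 and 0.32. The second probe set changed by 0.45 and 0.62 in Pkm and by 0.21 and 0.18 in Tpi1. It changed by -1.46 and -1.52 in Ldhb and by -0.74 and -0.96 in Bnip3.

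**Figure D2:**
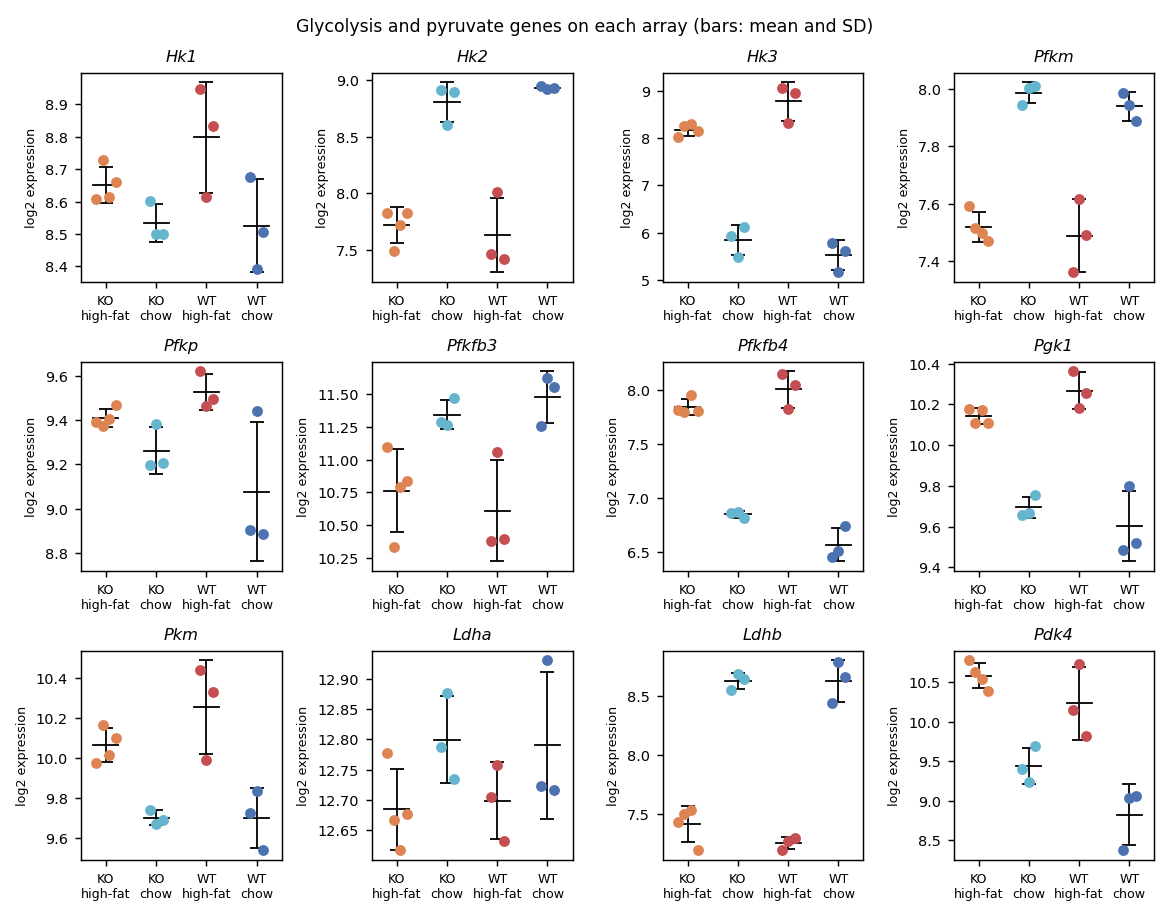
Log2 expression (vertical axis) of 12 genes of glycolysis and of lactate and pyruvate on every array, with 1 point per array, in knockout (KO) and wild-type (WT) mice on high-fat diet and chow. Horizontal lines and bars give the mean and standard deviation of a group, and each panel has its own scale; Hk3, Pfkfb4 and Pdk4 are higher and Hk2 and Ldhb lower on every high-fat array than on any chow array.

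Of the genes that decide the fate of pyruvate, Pdk4 rose and Ldhb fell in both genotypes. Pdk4, a kinase that switches pyruvate dehydrogenase off and is known for its induction by fatty acids and fasting, read 10.77, 10.63, 10.53 and 10.39 in knockouts fed high fat, against 9.40, 9.23 and 9.69 on chow. Its wild-type values were 10.14, 10.73 and 9.82 on high-fat diet, against 8.37, 9.03 and 9.06 on chow. High-fat and chow arrays were separate in both genotypes, and the wild-type arrays varied more. The rise was 1.14 ± 0.21 (2.21-fold, limma adjusted p 0.000745) in knockout mice and 1.41 ± 0.22 (2.66-fold, 0.000202) in wild-type mice. Ldhb, the heart-type lactate dehydrogenase subunit, which favours the turning of lactate into pyruvate, read 7.43, 7.50, 7.53 and 7.19 in knockouts fed high fat, against 8.55, 8.69 and 8.65 on chow. In the wild type the readings were 7.19, 7.27 and 7.29 on high-fat diet, against 8.44, 8.79 and 8.66 on chow. The gap between diets was far wider than the spread of replicates. Ldhb was 2.33-fold lower in knockout mice (-1.22 ± 0.09, limma adjusted p 7.33e-07) and 2.60-fold lower in wild-type mice (-1.38 ± 0.10, 3.23e-07). Ldha, the muscle-type subunit and a textbook HIF target, gave no call, at -0.12 ± 0.06 in knockout mice (95% confidence interval -0.25 to 0.02) and -0.09 ± 0.07 in wild-type mice (-0.24 to 0.05). Like Gapdh, it had a mean level (12.74) near the top of the range of values.

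Slc16a3, the monocarboxylate transporter that exports lactate from glycolytic cells, read 6.42, 6.47, 6.50 and 6.30 in knockouts fed high fat, against 6.20, 6.42 and 6.30 on chow. In wild-type fat the readings were 7.20, 6.56 and 6.89 on high-fat diet, against 6.24, 5.87 and 6.03 on chow. Diets overlapped in knockout mice and were separate in wild-type mice. Its change was 0.12 ± 0.13 in knockout mice (limma adjusted p 0.548), and it rose by 0.84 ± 0.14 (1.79-fold, 0.000409) in wild-type mice. Slc16a1, the more widely expressed transporter, changed by 0.27 ± 0.15 and 0.06 ± 0.16 in knockout and wild-type mice, and neither passed. Pdk1, a pyruvate dehydrogenase kinase known as a HIF target, changed by 0.10 ± 0.12 in knockout mice (limma adjusted p 0.589) and by -0.24 ± 0.13 in wild-type mice (0.182), with -0.37 and an adjusted p of 0.035 without wild-type chow replicate 1.

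The 2 HIF-alpha genes moved apart. Hif1a, the widely expressed subunit, read 10.63, 10.47, 10.56 and 10.63 in knockouts fed high fat, against 10.20, 10.15 and 10.31 on chow. Wild-type readings were 10.42, 10.68 and 10.39 on high-fat diet, against 9.87, 10.10 and 10.12 on chow. All high-fat arrays lay above the chow arrays. Hif1a rose by 0.35 ± 0.08 in knockout mice (1.28-fold, limma adjusted p 0.00459) and by 0.47 ± 0.09 in wild-type mice (1.38-fold, 0.000898). Epas1, which encodes HIF-2-alpha and is known for high expression in endothelium and adipocytes, read 10.74, 10.45, 10.58 and 10.44 in knockouts fed high fat, against 10.98, 10.98 and 10.87 on chow. Its readings in wild-type mice were 10.19, 10.64 and 10.46 on high-fat diet, against 10.99, 10.99 and 11.05 on chow. All high-fat arrays lay below the chow arrays of both genotypes. Epas1 fell by 0.39 ± 0.10 in knockout mice (limma adjusted p 0.00631) and by 0.58 ± 0.10 in wild-type mice (0.000543). The means of the adipocyte and of the endothelial markers were lower on the same arrays. Of 7 adipocyte markers 5 fell in knockout mice and 6 in wild-type mice, while Lep, the hormone leptin, rose in both, and of 8 endothelial markers 2 fell in knockout mice and 6 in wild-type mice. Their part in the fall of Epas1 was not tested.

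Among hypoxia-response targets, Car9 rose most. Car9, a membrane carbonic anhydrase that is among the best-known HIF targets, read 5.50, 5.88, 6.10 and 5.54 in knockouts fed high fat, against 4.45, 4.25 and 4.41 on chow. Among wild-type arrays it read 6.15, 5.67 and 6.19 on high-fat diet, against 4.34, 4.29 and 4.42 on chow. Every high-fat array was more than 1 log2 unit above the chow arrays of its genotype. The measured rise was 1.38 ± 0.15 (limma adjusted p 1.26e-05), at least 2.61-fold, in knockout mice and 1.65 ± 0.16 (3.83e-06), at least 3.13-fold, in wild-type mice. These folds are given as lower bounds because the chow values were not shown to be above background. Lox, an enzyme that cross-links collagen, read 10.02, 9.79, 9.92 and 10.07 in knockouts fed high fat, against 9.06, 9.07 and 9.11 on chow. The same gene in wild-type mice read 9.61, 9.95 and 9.35 on high-fat diet, against 9.36, 8.89 and 8.99 on chow. Diets were separate in knockout mice, while in wild-type mice chow replicate 1 reached the lowest high-fat value. Lox rose by 0.87 ± 0.13 (1.83-fold, limma adjusted p 0.000182) in knockout mice and by 0.56 ± 0.14 (1.47-fold, 0.00669) in wild-type mice.

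Of the established targets, 4 fell in wild-type mice, and 3 of them in knockout mice too. Vegfa, the main growth factor of blood vessels, read 9.39, 8.77, 9.15 and 9.16 in knockouts fed high fat, against 10.44, 10.63 and 10.50 on chow. The corresponding wild-type values were 8.90, 9.59 and 9.01 on high-fat diet, against 10.22, 10.83 and 10.72 on chow. Diets were well separated in both genotypes. Vegfa was 2.65-fold lower in knockout mice (-1.41 ± 0.18, limma adjusted p 5.08e-05) and 2.68-fold lower in wild-type mice (-1.42 ± 0.19, 6.67e-05), the largest fall among the members. Ndrg1, a stress- and hypoxia-responsive gene, read 10.02, 9.77, 9.83 and 9.75 in knockouts fed high fat, against 10.85, 10.70 and 10.87 on chow. Wild-type fat read 9.84, 9.92 and 9.94 on high-fat diet, against 10.97, 10.74 and 11.11 on chow. Its high-fat values were tightly grouped below all chow values. Ndrg1 fell by 0.96 ± 0.09 (limma adjusted p 2.36e-06) in knockout mice and by 1.04 ± 0.09 (1.67e-06) in wild-type mice. Bnip3, a mitochondrial protein that marks mitochondria for removal, read 11.29, 10.89, 11.10 and 11.31 in knockouts fed high fat, against 11.82, 11.73 and 11.68 on chow. Wild-type values of Bnip3 were 10.49, 11.12 and 10.73 on high-fat diet, against 11.65, 11.78 and 11.83 on chow. No high-fat array reached a chow array. Bnip3 fell by 0.59 ± 0.13 (limma adjusted p 0.00286) in knockout mice and by 0.98 ± 0.14 (8.71e-05) in wild-type mice.

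Egln3, a prolyl hydroxylase that marks HIF-alpha for destruction and is itself induced by HIF, read 5.65, 5.59, 5.84 and 5.78 in knockouts fed high fat, against 5.86, 5.97 and 5.86 on chow. In wild-type animals it read 5.52, 6.19 and 5.56 on high-fat diet, against 6.31, 6.43 and 6.31 on chow. The diets were separate in both genotypes, narrowly in the knockouts, and wild-type high-fat replicate 2 sat apart from the other 2. Egln3 changed by -0.19 ± 0.14 in knockout mice (limma adjusted p 0.334) and fell by 0.59 ± 0.15 in wild-type mice (0.00613). P4ha1 and P4ha2 encode the catalytic subunits of the collagen prolyl hydroxylase. P4ha2 read 6.73, 6.76, 6.56 and 6.55 in knockouts fed high fat, against 7.39, 7.52 and 7.19 on chow. Its wild-type readings were 6.89, 6.74 and 6.53 on high-fat diet, against 6.63, 6.81 and 7.00 on chow. Diets were separate in knockout mice, where chow was the highest of the 4 groups, and overlapped in wild-type mice. P4ha2 fell by 0.72 ± 0.12 (limma adjusted p 0.000301) in knockout mice and changed by -0.09 ± 0.12 (0.62) in wild-type mice. P4ha1 changed by 0.01 ± 0.12 in knockout mice (limma adjusted p 0.965) and rose by 0.43 ± 0.12 in wild-type mice (0.0152), a call that was lost without wild-type high-fat replicate 1 (0.31, 0.076).

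Ddit4, a stress gene that restrains growth signalling through mTOR, read 8.75, 8.72, 8.80 and 8.89 in knockouts fed high fat, against 8.30, 7.44 and 8.45 on chow. The wild-type spread was wide, with 7.73, 8.78 and 8.19 on high-fat diet, against 7.75, 8.40 and 8.48 on chow. Its diets were separate in knockout mice and overlapped in wild-type mice. Ddit4 rose by 0.73 ± 0.26 in knockout mice (limma adjusted p 0.0455) and changed by 0.02 ± 0.28 in wild-type mice (0.961). The knockout call did not survive the removal of any single knockout array other than chow replicate 3, nor of wild-type chow replicate 2 or 3 or wild-type high-fat replicate 3, with changes of 0.42 to 0.85 and adjusted p of 0.0506 to 0.242. Adm, the vasodilator peptide adrenomedullin, had the largest spread between replicates of all members, a pooled standard deviation of 0.44. It changed by -0.24 ± 0.28 in knockout mice (limma adjusted p 0.553) and by -0.39 ± 0.30 in wild-type mice (0.361), where high-fat replicate 2 read 8.38 and the other 2 read 7.17 and 7.01. Without that array its wild-type change was -0.82 with an adjusted p of 0.00887. Ankrd37, a target with a poorly known role, changed by -0.01 ± 0.10 in knockout mice and by 0.28 ± 0.11 in wild-type mice, with an adjusted p of 0.0623 that passed without knockout chow replicate 2 (0.0224).

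**Figure D3:**
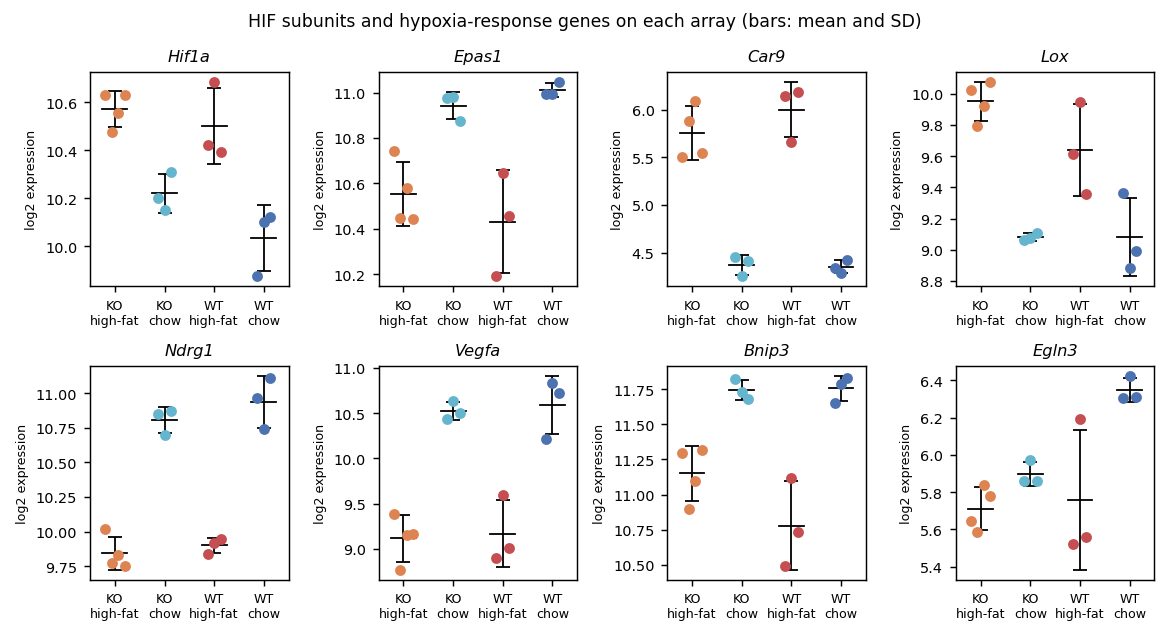
Log2 expression (vertical axis) of both HIF-alpha genes and 6 hypoxia-response genes on every array, with 1 point per array, in knockout (KO) and wild-type (WT) mice on high-fat diet and chow. Lines and bars give each group's mean and standard deviation; Hif1a and Car9 are higher, and Epas1, Ndrg1, Vegfa and Bnip3 lower, on all high-fat arrays than on the chow arrays.

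The diet response had the same direction in both genotypes for every member that passed in both. There were 17 of these, of which 9 rose and 8 fell, and the change was the smaller one in knockout mice for 15 of them. The exceptions were Pfkm and Lox. This count was not made over all genes, so it is not read as particular to the members. On the first component over all genes, knockout arrays ran from 22.98 to 35.01 on high-fat diet and from -38.78 to -32.63 on chow. Wild-type arrays ran from 23.23 to 41.78 and from -46.07 to -37.46. Across the 35 members the changes in knockout and wild-type mice, which share no arrays, had Pearson's r of 0.94 and Spearman's rho of 0.89. Over all genes r was 0.92. Genes are not independent replicates, and all values come from the same 13 arrays and 1 normalisation. Another 4 members passed in knockout mice and not in wild-type mice (Tpi1, Eno3, P4ha2 and Ddit4), 6 passed in wild-type mice and not in knockout mice (Hk1, Pfkp, Pgam1, Slc16a3, Egln3 and P4ha1), and 8 passed in neither. A pass in 1 genotype alone does not show a difference between them, which is the question of the interaction, the diet change in knockout mice minus that in wild-type mice.

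**Figure D4:**
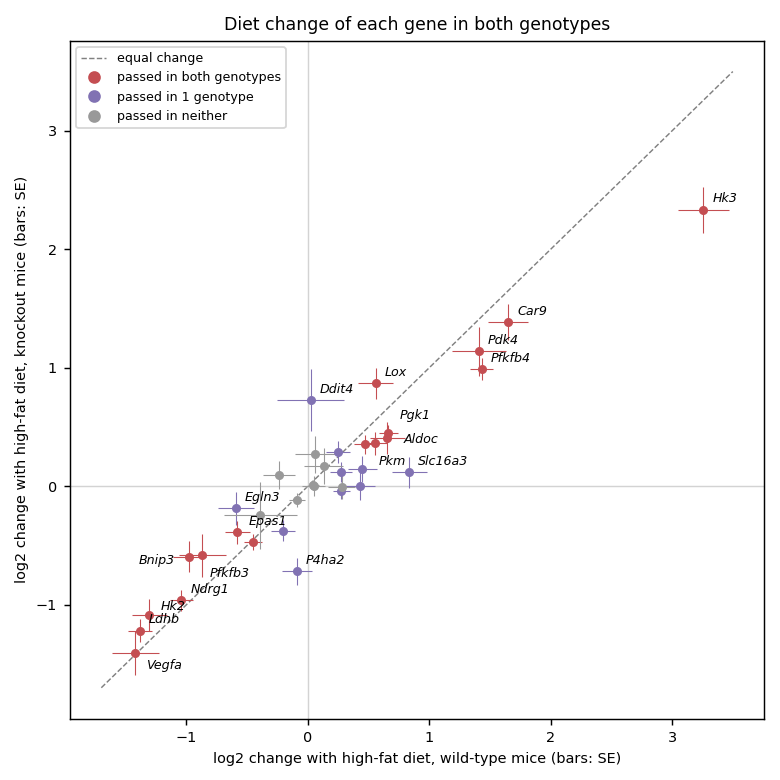
Log2 change with high-fat diet in knockout mice (vertical axis) against wild-type mice (horizontal axis) for the 35 members, with standard errors as bars and colours for the number of genotypes in which a member passed. Of the 17 members that passed in both, 15 lie nearer to 0 on the knockout axis than on the wild-type axis, a count not made over all genes. Hk3, with a difference of -0.92 between its changes, lies farthest from the line of equal change.

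In the interaction test 0 of 35 members passed in limma, as did 0% of all genes. At an unadjusted p under 0.05 there were 6 members, Hk3, Pfkfb4, Pgam1, Slc16a3, P4ha1 and P4ha2, where 9.72% of all genes passed that level. All 6 had a negative interaction. The median interaction was -0.04 over the members and -0.03 over all genes. Directions at this level were not counted over all genes, so the sign is not read as particular to the members. It was -0.63 ± 0.17 for P4ha2 (95% confidence interval -0.99 to -0.26, limma adjusted p 0.326), the smallest adjusted p of any member. For Slc16a3 it was -0.72 ± 0.20 (-1.14 to -0.30, 0.329), and for Hk3 -0.92 ± 0.29 (-1.54 to -0.31, 0.368). The chow values of Hk3, which enter its interaction, were not shown to be above background. Pfkfb4 had -0.44 ± 0.13 and Pgam1 -0.32 ± 0.09, both with an adjusted p of 0.358. Leaving out wild-type high-fat replicate 2 brought the Slc16a3 interaction to -0.88 with a limma adjusted p of 0.0438. Leaving out wild-type chow replicate 1 as well brought it to -0.98 with 0.0336. Both arrays were chosen after seeing the data. Over all genes, single arrays left out gave up to 21 positive and up to 85 negative interactions.

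Knockout and wild-type mice on the same diet were compared directly to ask how these genes differ between the genotypes. The wild-type mice were not stated to be littermates. Loss of P2X7 therefore cannot be told apart from other differences between the strains. On high-fat diet 0 of 35 members passed, where 0.0106% of all genes were higher and 0.0319% lower in knockout mice. At an unadjusted p under 0.05 in limma there were 6 members, against 7.41% of all genes. Slc16a3 differed by -0.46 ± 0.13 (95% confidence interval -0.75 to -0.17, limma adjusted p 0.571), Hk3 differed by -0.60 ± 0.20 (-1.02 to -0.18, 0.595) and Aldoc by -0.36 ± 0.13 (0.63). Pgam1 differed by -0.15 ± 0.06 (0.652), Bnip3 by 0.37 ± 0.13 (0.617) and Lox by 0.31 ± 0.13 (0.655). In Hk3, Pgk1, Pgam1 and Slc16a3 all knockout arrays were below all wild-type arrays, a pattern shown by 4.27% of all genes. Without wild-type high-fat replicate 2, Slc16a3 passed at -0.62 (limma adjusted p 0.0354) and Bnip3 at 0.54 (0.0388). Without wild-type chow replicate 1 as well, Hk3 at -0.83 (0.0407) and Lox at 0.47 (0.0354) passed too. That chow array is no part of these differences and acts only through the spread that the groups share in the fit. These 2 arrays were chosen after seeing the data. Knockout high-fat replicate 1, with a first component of 22.98 against 23.23 in wild-type high-fat replicate 2, was not left out with them. Over all genes, leaving out single arrays gave up to 63 calls higher and up to 114 lower in knockout mice.

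On chow 0 of 35 members passed, where 0.0478% of all genes were higher and 0.085% lower in knockout mice, and 6 had an unadjusted p under 0.05 in limma, against 9.62% of all genes. P4ha2 differed by 0.56 ± 0.12 (95% confidence interval 0.29 to 0.82, limma adjusted p 0.164), Pdk4 by 0.62 ± 0.22 (0.387) and Egln3 by -0.45 ± 0.15 (0.338). Pfkfb4, P4ha1 and Pgam1 differed by 0.28 ± 0.10, 0.33 ± 0.12 and 0.16 ± 0.07. Knockout arrays lay above all wild-type arrays in 5 members (Pfkfb4, Pdk4, Hif1a, P4ha1 and P4ha2), where 9.3% of all genes did so, and below them in 3 (Hk2, Epas1 and Egln3), where 5.64% did so. Liver markers were lower on all of these knockout arrays than on the wild-type ones, as given above, and their part in these differences was not tested. For Ldha and Gapdh the intervals of the genotype difference were narrow. Their mean levels, 12.74 and 13.05, were near the highest value of any probe set (13.86). Whether differences read smaller at such levels was not tested. Ldha differed by -0.01 on high-fat diet (95% confidence interval -0.15 to 0.12) and by 0.01 on chow (-0.13 to 0.15), and Gapdh by 0.01 (-0.09 to 0.10) and 0.04 (-0.06 to 0.14). Vegfa, which varies more, differed by -0.05 (-0.44 to 0.34) and -0.06 (-0.49 to 0.36).

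**Figure D5:**
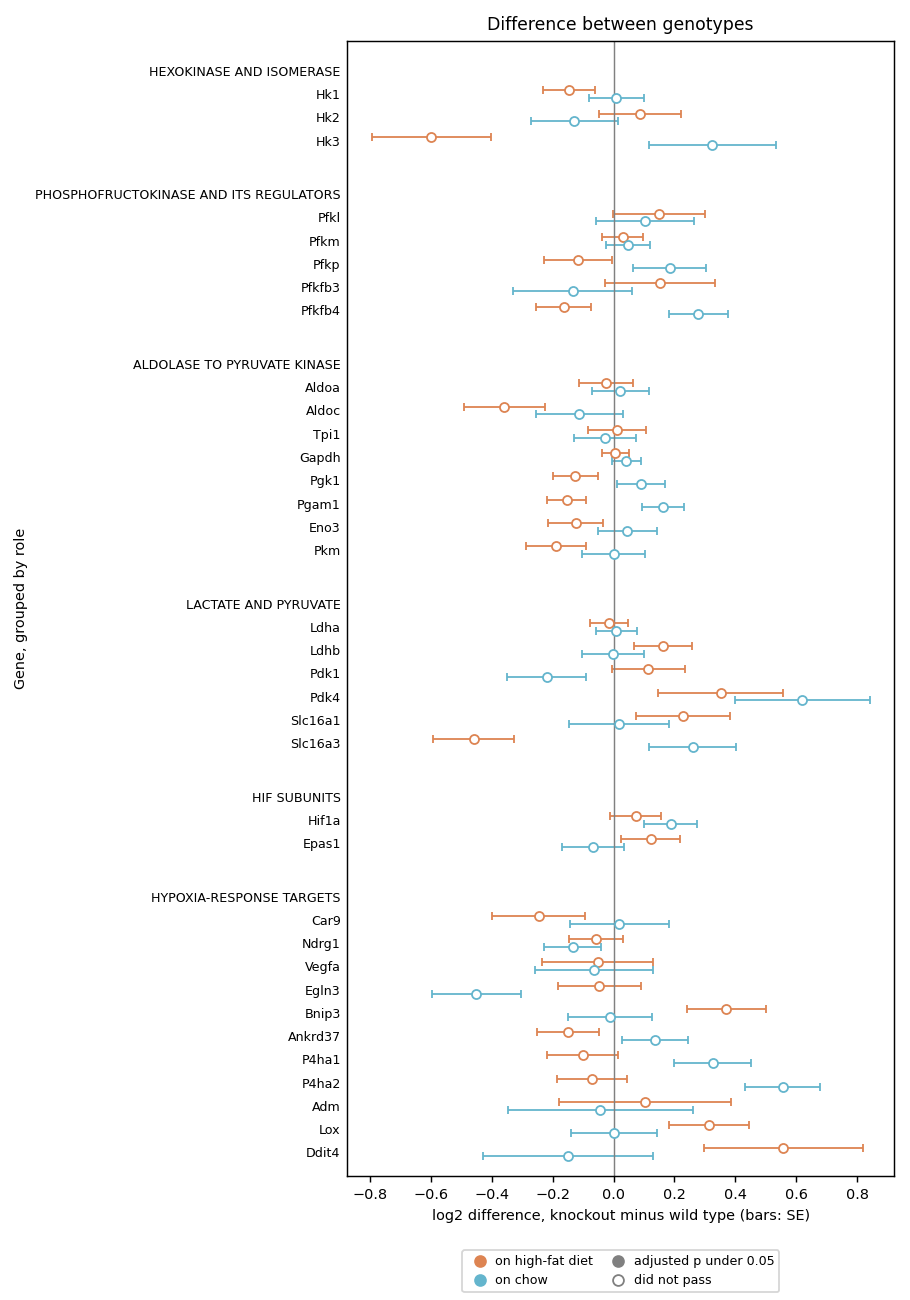
Log2 difference between knockout and wild-type mice (knockout minus wild type, horizontal axis) for the 35 members, grouped by role, on high-fat diet (orange) and on chow (blue). Bars are standard errors from limma, and all points are open because no member had an adjusted p under 0.05 on either diet.

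Among genes that bring glucose to the pathway or store it, falls outnumbered rises. Over all genes 14.5% rose and 19.7% fell in knockout mice, and 17.7% rose and 18.1% fell in wild-type mice. Of 10 measured glucose transporters 2 rose and 5 fell in knockout mice, and 3 rose and 5 fell in wild-type mice. The transporter that insulin brings to the surface of fat and muscle cells, Slc2a4, fell by 2.25 ± 0.20 in knockout mice (limma adjusted p 1.93e-06) and by 2.31 ± 0.21 in wild-type mice (2.01e-06). Slc2a13, a proton-linked inositol transporter, changed by -1.32 ± 0.13 in knockout mice and -1.80 ± 0.13 in wild-type mice, and Slc2a3, a high-affinity glucose transporter, by -1.20 ± 0.12 and -1.55 ± 0.13, all past the threshold. Slc2a1, the basal glucose transporter and a HIF target, changed by 0.18 ± 0.14 in knockout mice (limma adjusted p 0.376) and rose by 0.80 ± 0.15 in wild-type mice (0.000922). Of 12 glycogen genes, 2 rose and 9 fell in each genotype. The glycogen phosphorylase Pygb fell by 1.55 ± 0.09 in both, and Gys1, the muscle-type glycogen synthase, fell too, at -1.07 ± 0.12 in knockout mice and -1.42 ± 0.13 in wild-type mice. Gys2, the liver-type glycogen synthase, named here after its values were seen, rose by 1.48 ± 0.31 in knockout mice (limma adjusted p 0.0023) and by 1.45 ± 0.33 in wild-type mice (0.00386). Pygl, the liver phosphorylase, fell by 1.38 ± 0.14 and 1.27 ± 0.15, and the branching enzyme Gbe1 by 0.77 ± 0.13 and 1.18 ± 0.13. In the pentose phosphate branch, which makes NADPH, 0 of 7 rose and 2 fell in knockout mice, and 0 rose and 3 fell in wild-type mice. With so few genes these counts are not read against the shares of all genes. The falls were led by H6pd at -0.91 ± 0.08 and -1.005 ± 0.085.

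Beyond the members, 15 other glycolysis genes were measured, of which 3 rose and 2 fell in each genotype, near the shares of all genes (14.5% and 19.7% in knockout mice, 17.7% and 18.1% in wild-type mice). Eno2, the neuronal enolase, rose by 1.52 ± 0.15 (limma adjusted p 3.56e-06) in knockout mice and by 1.15 ± 0.16 (5.82e-05) in wild-type mice. The phosphoglucomutase Pgm2 rose by 0.37 ± 0.07 and 0.67 ± 0.08, and Pgm1, which links glycogen to glycolysis, fell by 0.95 ± 0.13 and 1.05 ± 0.14. Of 15 other genes of pyruvate and lactate, 1 rose and 9 fell in each genotype, with a median log2 change of -0.40 in knockout mice and -0.51 in wild-type mice. Pdk2, a pyruvate dehydrogenase kinase like Pdk4, fell by 1.02 ± 0.11 in knockout mice (limma adjusted p 7.31e-06) and by 1.37 ± 0.11 in wild-type mice (8.02e-07), opposite to Pdk4. The transporter Slc16a7 fell by 0.80 ± 0.07 and 0.79 ± 0.08, and Mpc1, a subunit of the carrier that brings pyruvate into mitochondria, by 0.40 ± 0.11 and 0.68 ± 0.12. Emb, an accessory protein of lactate transporters, was the gene that rose, by 1.14 ± 0.19 and 1.63 ± 0.21.

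Of 12 measured genes of oxygen sensing, 1 rose and 5 fell in knockout mice, where 14.5% of all genes rose and 19.7% fell, and 0 rose and 6 fell in wild-type mice, where 17.7% rose and 18.1% fell. The gene that rose was Vhl, part of the ligase that tags hydroxylated HIF-alpha for destruction, with 0.29 ± 0.11 in knockout mice (limma adjusted p 0.0489) and a change of 0.19 ± 0.11 in wild-type mice (0.221). Arnt, the shared partner of both HIF-alpha subunits, fell by 0.33 ± 0.05 in knockout mice (limma adjusted p 0.00019) and by 0.44 ± 0.05 in wild-type mice (2.1e-05). Cited2, which competes with HIF for its coactivators, fell by 0.86 ± 0.12 and 0.80 ± 0.13. The prolyl hydroxylases Egln1 and Egln2 fell by 0.31 ± 0.08 and 0.23 ± 0.06 in knockout mice, and by 0.37 ± 0.08 and 0.26 ± 0.06 in wild-type mice. A further 32 hypoxia-response genes also went both ways. In knockout mice 8 rose and 7 fell, beside 14.5% and 19.7% of all genes, and in wild-type mice 9 rose and 8 fell, beside 17.7% and 18.1% of all genes. Stc2, a secreted stanniocalcin, fell, with log2 changes of -1.93 ± 0.17 (limma adjusted p 2.22e-06) in knockout mice and -2.05 ± 0.19 (1.78e-06) in wild-type mice. Plod2, a collagen lysyl hydroxylase, rose by 0.95 ± 0.13 and 1.11 ± 0.14, and Pdgfb, a growth factor of vessel wall cells, by 0.22 ± 0.07 and 0.58 ± 0.08. Wsb1, a ubiquitin ligase subunit, rose by 0.85 ± 0.14 and 1.03 ± 0.15. Over this list the median log2 change was -0.06 in knockout mice and -0.07 in wild-type mice, against -0.06 and -0.03 over all genes.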

How the data were processed

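Total RNA (100 ng per array) from epididymal fat was hybridised to Affymetrix arrays. Per the submitters' processing notes, the authors made the deposited log2 values with RMA, which corrects background, equalises the arrays and summarises probes. The sources used here name no version. Values ran from 1.70 to 13.86 over 35556 probe sets, of which the platform annotation gave 21218 a single gene symbol, 1881 several and 12457 none. Only the first kind was used, and the probe set with the highest mean stood for a gene. Array medians over genes ran from 6.56 to 6.69, and no further scaling was applied.

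One limma 3.58.1 model (R 4.3.3; version 1.17.8 of data.table) with a mean for each group was fitted to the 13 arrays and 18820 genes, with an intensity trend. P-values were Benjamini-Hochberg adjusted over all genes of a contrast. The groups share an estimate of spread, so leaving out an array can change the adjusted p of a comparison it is not part of. The number of arrays limits the precision. Members, lists and named genes were chosen with earlier results of these data known. All members could be named, and up to 4 genes of each other list, by smallest p in wild-type mice. Besides these, Gys2, Vhl, Lep, Pvalb and Cd163 were named after their values were seen. No list was tested as a set. Entrez IDs of 35 of 35 measured members matched RefSeq GRCm38.p6. The fit was tested on simulated arrays with 200 of 18820 genes changed. At 1.5-fold and 2-fold it recovered 82% and 94% for diet in knockout mice and 73% and 94% for diet in wild-type mice. For genotype it recovered 83% and 94% on high-fat diet and 79% and 96% on chow, and for the interaction 59% and 79%. False calls made up 5.41% to 7.38% of its calls, against a nominal 5%. On the real arrays the diet comparisons called 34.2% of all genes in knockout mice and 35.8% in wild-type mice. The simulation changed a far smaller share, so its rates may not hold for the diet comparisons. Figures used Python 3.11.15, matplotlib 3.10.9 and numpy 2.4.6.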

Additional observations from a re-analysis of the deposited data

Results flagged for a closer look

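In groups of 4 arrays, 35 groups were checked for a single array whose gap to its nearest neighbour, divided by the range of the group, exceeded Dixon's critical value at 95%, and 2 did; chance gives about 1 in 20. Pfkfb4 in knockout mice on high-fat diet read 7.95 in replicate 3, with the other 3 arrays between 7.79 and 7.81 and a ratio of 0.90. Aldoc in the same group read 6.28 in replicate 2, with the other 3 arrays all at 6.00 and a ratio of 1. Its diet change in knockout mice was 0.34 without that array, with a limma adjusted p of 0.0828.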

How the results depend on the processing

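The fit was repeated with another variance model, 2 other scalings, a filter on dim genes, the mean of a gene's probe sets, array weights, the compared groups alone, a replicate block, each array left out in turn and, chosen after seeing the data, wild-type high-fat replicate 2 and wild-type chow replicate 1 left out together. Of the member calls, 17 of 21 in knockout mice and 18 of 23 in wild-type mice held under all of these, and 0 reversed. In knockout mice Pfkfb3, Aldoc, Tpi1 and Ddit4 lost the call under at least 1. In wild-type mice Hk1 and P4ha1 did, as did Pfkp, Pgam1 and Lox with the compared groups alone (adjusted p 0.0668, 0.0534 and 0.0544). Requiring 1.5-fold left 6 that rose and 6 that fell in knockout mice and 7 that rose and 7 that fell in wild-type mice. With single arrays left out, 8 to 11 members rose and 9 to 10 fell in knockout mice, and 12 to 15 rose and 9 to 11 fell in wild-type mice. Of all 18820 genes, 2215 to 2812 rose and 2890 to 3840 fell in knockout mice in the same fits. In wild-type mice 2871 to 3374 rose and 2807 to 3665 fell. In the genotype comparison on high-fat diet 0 to 1 rose and 0 to 1 fell, and 0 to 1 had a negative interaction. With both wild-type arrays out, 2 rose and 2 fell for genotype on high-fat diet and 1 had a negative interaction. Over all genes, the calls for genotype on high-fat diet (2 up, 6 down) ran from 0 to 81 and 0 to 139. On chow (9 up, 16 down) they ran from 0 to 14 and 2 to 30, and for the interaction (0 and 0) up to 21 and 85. The member promoter share was 53.85% in the shorter window.

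Same-numbered arrays of different groups had deviations that correlated at -0.30 to 0.22 (median 0.018). Of these pairs 6 of 18 were above 0.1, against 10 of 45 pairs with other numbers. Only 3 of 12 arrays correlated best with their own number. The check did not show that the numbers pair the samples, and with so few arrays it cannot exclude it. With the replicate block 8 members rose and 9 fell in knockout mice and 14 rose and 9 fell in wild-type mice. Over this and the other settings that did not leave out a single array, 2457 to 3114 of all genes rose in knockout mice. There 3140 to 4538 fell, and in wild-type mice 2667 to 3379 rose and 2584 to 4523 fell. Scaling moved the median of all genes by at most -0.064. Signal over background limits the folds of dim genes such as Car9 and Hk3 on chow, and the changes of Aldoc and Egln3.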
